A study of Phaseolus vulgaris with 18 samples.

Results

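The genes described here are the 39 of 27420 genes in the deposited expression table of common bean, Phaseolus vulgaris, whose description contains the word gibberellin. Their selection used that word alone and no expression value, though it was made with earlier results of these data known. By their descriptions, 5 are gibberellin 20-oxidases, 5 are gibberellin 3-oxidases, 13 are gibberellin 2-oxidases and 16 are gibberellin-regulated family proteins. The descriptions name the closest kind of Arabidopsis gene, so each name rests on that match and not on a test in bean. Some enzymes of the same pathway are described without the word and are therefore no members, among them a gene matched to GA20OX1, and these were followed as a separate list of 34 other pathway genes.

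Gibberellins are diterpenoid plant hormones that promote growth. Cyclases and cytochrome P450 enzymes build the precursors, 20-oxidases and then 3-oxidases complete the active hormone, and 2-oxidases inactivate it or its precursors. The active hormone binds the receptor GID1, and the bound receptor brings DELLA repressors to an F-box protein (SLY1 in Arabidopsis) for destruction. Developing legume seeds are a known site of gibberellin synthesis, best studied in pea, and the gibberellin-regulated family encodes small, cysteine-rich peptides first described as GAST1 in tomato and GASA in Arabidopsis.

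RNA was sequenced from grain and from pod of the bean line labelled Phaseolus vulgaris 4004 at 10, 15 and 20 DAF. The labels leave that abbreviation unexplained, and it is taken here to mean days after flowering. Each of the 6 combinations of tissue and stage held 3 libraries, 18 in all, and no treatment or genotype contrast is labelled. Whether replicate libraries stem from different plants is not labelled, so p-values here reflect the spread between libraries alone, and that spread may be technical. Nor do the labels say whether pod means the emptied pod wall or how plants were pooled.

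Values are TPM, the abundance unit of the deposited table, which are corrected for gene length within a library and so can be set side by side between genes. Read depth cannot be recovered from TPM, so the depth behind a value is unknown and no counting interval is given. Columns summed to between 823001 and 999633 TPM, apart from pod 15 DAF replicate 3, which summed to 436072. Across all tested genes that library was the closest match of the second pod 10 DAF column (r = 0.938, against 0.929 at best within its group), and grain 20 DAF replicate 3 was closest to a 15 DAF grain library (r = 0.968, against 0.958). The summed TPM of 8 seed storage cupins was 157.1 to 2274 in grain at 10 DAF, 82540 to 133800 at 15 DAF, 102200 to 135300 at 20 DAF and 15.16 to 72.64 in pods, and none of the 8 was at 0 throughout a group. As TPM are shares of a library, such a rise lowers the share left for other genes. The median log2 difference of all tested genes in grain at 20 against 10 DAF was -1.08 as deposited and -0.10 after median-ratio scaling, a rescaling that centres most genes, so grain results are given on both scales where the call differs. In such bulk samples, fewer cells of a type and less RNA per cell cannot be told apart.

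A gene was tested if it had at least 1 TPM in at least 3 libraries, and 17 of the 39 members passed. These were 1 of the 5 20-oxidases, 1 of the 5 3-oxidases, 4 of the 13 2-oxidases and 11 of the 16 family genes. A member that passed through 1 high group had to differ between groups, so counts and medians over the 17 are a description. Among the other 22, the highest value in any library was 4.29 TPM, and 4 genes were listed at 0 in all 18 libraries. Calling a gene higher or lower took a limma adjusted p below 0.05 and at least 1 log2 unit of difference. Differences were taken on log2(TPM + 1), a scale that understates the change of genes with low values. Each log2 difference is followed by its standard error (SE), and each TPM mean by the SD of 3 libraries.

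Of the 5 20-oxidase genes, which carry out the late steps before the active hormone, a single one supplied nearly all transcripts in grain. Phvul.010G087500, matched to GA20OX2, stood at 117, 172 and 159 TPM in grain at 10 DAF, at 45.8, 44.3 and 39.1 TPM at 15 DAF, and at 1.78, 0.794 and 24.1 TPM at 20 DAF. In pods its highest value in 9 libraries was 0.605 TPM. The 3 grain stages did not overlap, and every grain library lay above every pod library. Replicate 3 at 20 DAF, the library that resembled a 15 DAF grain across all tested genes, stood far above the other 2 of its group.

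The fall of Phvul.010G087500 in grain from 10 to 20 DAF was -4.89 ± 0.60 (log2, SE; limma adjusted p = 3.06e-06), and -6.06 without replicate 3 at 20 DAF. From 15 to 20 DAF it changed by -3.14 ± 0.60 (adjusted p = 0.00395), and by -4.30 without that replicate. The earlier step, from 10 to 15 DAF, was -1.75 ± 0.60 (adjusted p = 0.0243), and its call was lost after median-ratio scaling (-0.88, adjusted p = 0.349) and without any 1 of 5 single libraries, with adjusted p up to 0.0643. Grain exceeded pod by 6.96 ± 0.60 at 10 DAF (adjusted p = 3.31e-08), by 5.43 ± 0.60 at 15 DAF (adjusted p = 9.33e-07) and by 2.31 ± 0.60 at 20 DAF (adjusted p = 0.00244). The last of these was 1.14 without grain replicate 3. The gene supplied 99.1% of the summed TPM of the 5 20-oxidase members in grain at 10 DAF, 99.9% at 15 DAF and 99.8% at 20 DAF. That sum leaves out the non-member Phvul.004G123600, matched to GA20OX1 and added after its values were seen. This gene had 3.79, 7.26 and 12.6 TPM in grain at 10 DAF, and at most 1.06 TPM in later grain and 0.638 TPM in pods. Its fall in grain from 10 to 20 DAF was -2.92 ± 0.31 (adjusted p = 4.77e-07).

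The other 20-oxidase members were near the floor. Phvul.007G064800, also matched to GA20OX2, had 1.78, 0.905 and 1.18 TPM in grain at 10 DAF and at most 0.152 TPM elsewhere. It just missed the filter because 1 of its 10 DAF values was below 1 TPM. Phvul.009G155400 reached 0.146 TPM, and Phvul.001G066000 and Phvul.009G131500 were listed at 0 in every library.

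The 3-oxidases, which make the active hormone, were led by 1 gene in young grain. Phvul.009G097100, matched to GA3OX1, had 42.9, 39.1 and 41.3 TPM in grain at 10 DAF, 3.99, 3.77 and 1.87 TPM at 15 DAF, and 0, 0 and 0.51 TPM at 20 DAF. Pod libraries held at most 0.147 TPM. The stages of grain did not overlap, and at 20 DAF grain and pod did overlap.

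Phvul.009G097100 fell in grain, by a log2 difference of -3.36 ± 0.25 from 10 to 15 DAF (adjusted p = 2.56e-08) and of -1.83 ± 0.25 from 15 to 20 DAF (adjusted p = 0.000207). Its whole change from 10 to 20 DAF was -5.20 ± 0.25 (adjusted p = 3.69e-11). Grain exceeded pod by 5.37 ± 0.25 at 10 DAF and by 1.97 ± 0.25 at 15 DAF (adjusted p = 7.36e-12 and 3.78e-06). All of these calls held after median-ratio scaling. The gene supplied 99.7% of the summed 3-oxidase TPM in grain at 10 DAF and 65.1% at 15 DAF. The second 3-oxidase in grain, Phvul.009G097200, gave 4.29, 0.833 and 0 TPM at 15 DAF and 1.39 TPM in replicate 3 at 20 DAF, where it made up 73.2% of a mean class sum of only 0.634 TPM. A pod copy, Phvul.010G152200, reached 2.21 TPM in 1 pod library at 10 DAF and no more than 0.478 TPM in the others. Phvul.001G055000 and Phvul.005G173500 stayed at or below 0.056 TPM.

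Unlike the 20-oxidases and 3-oxidases, the 2-oxidases, which inactivate gibberellins, were found in both tissues. A pair matched to GA2OX1, Phvul.005G061000 and Phvul.005G061200, gave between 82.5% and 99.4% of the summed 2-oxidase TPM of each group. Phvul.005G061000 stood at 75.1, 60.1 and 106 TPM in grain at 10 DAF, at 76, 75.1 and 25.4 TPM at 15 DAF, and at 1.52, 6.09 and 22.7 TPM at 20 DAF. In pods it ran the other way, with 0.813, 1.64 and 8.57 TPM at 10 DAF, then 66.1, 84.6 and 29.5 TPM at 15 DAF and 41.2, 17.5 and 40.8 TPM at 20 DAF. Pod libraries at 10 DAF all lay below those of both later stages, and grain libraries at 20 DAF all lay below those of both earlier stages.

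Phvul.005G061000 fell in grain from 10 to 20 DAF, with a log2 difference of -3.40 ± 0.70 (adjusted p = 0.000452) and rose in pod by 3.16 ± 0.70 (adjusted p = 0.00481). The difference between these changes was tested directly and was -6.56 ± 0.99 (adjusted p = 9.56e-05). It held after scaling and without any single library, where it ranged from -7.39 to -5.77. The pod rise was already present at 15 DAF (3.97 ± 0.70, adjusted p = 0.00222). Grain exceeded pod by 4.47 ± 0.70 at 10 DAF (adjusted p = 4.71e-05), whereas at 20 DAF grain was lower by a log2 difference of -2.09 ± 0.70 (adjusted p = 0.0127), a call lost after scaling (-0.84, adjusted p = 0.319) and without grain 20 DAF replicate 1 (-1.30, adjusted p = 0.107). In grain from 15 to 20 DAF the change was -2.84 ± 0.70 (adjusted p = 0.021). That call was lost without any 1 of 4 single grain libraries, replicates 1 and 2 at 15 DAF and replicates 1 and 2 at 20 DAF, with adjusted p up to 0.188.

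Its partner Phvul.005G061200 had 106, 70.2 and 99 TPM in grain at 10 DAF, 82.3, 67 and 33.9 TPM at 15 DAF and 18.2, 26.7 and 49.4 TPM at 20 DAF. Its pod values were 6.25, 24.1 and 36 TPM at 10 DAF, then 149, 144 and 45.2 TPM at 15 DAF and 151, 51.4 and 145 TPM at 20 DAF. As with the first gene, pods at 10 DAF did not overlap with pods at 15 or 20 DAF, and grain at 10 DAF did not overlap with grain at 20 DAF.

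Phvul.005G061200 rose in pod by 2.48 ± 0.59 from 10 to 20 DAF (adjusted p = 0.00798), and the call was lost without the first pod 10 DAF column (1.79, adjusted p = 0.0652) and when only the groups compared were fitted (adjusted p = 0.0646). The pod rise to 15 DAF was 2.41 ± 0.59 (adjusted p = 0.0176), lost without that column (1.72, adjusted p = 0.123) or without pod 15 DAF replicate 1 or 2 (adjusted p = 0.062 and 0.0791). Its fall in grain was -1.61 ± 0.59 (adjusted p = 0.0231) as deposited and -0.34 after scaling (adjusted p = 0.656), and it was also lost without any 1 of 4 grain libraries (adjusted p = 0.0555 to 0.108). The tissue difference between the changes, -4.09 ± 0.83 (adjusted p = 0.000946) and -2.62 after scaling, held on both scales and without any single library. Whether the deposited values share reads between these 2 copies is not given in the sources used here.

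2 other 2-oxidases passed the filter at low levels. Phvul.007G052000, matched to GA2OX8, which in Arabidopsis acts on hormone precursors, was a pod gene. It had 2.87, 1.1 and 3.76 TPM in pods at 10 DAF, 7.84, 24.3 and 3.28 TPM at 15 DAF and 13.7, 1.61 and 4.53 TPM at 20 DAF, and it was listed at 0 in 8 of 9 grain libraries, with 0.101 TPM in the other. Every pod library was above every grain library at each stage. Grain was lower by a log2 difference of -1.76 ± 0.55 at 10 DAF, -3.25 ± 0.55 at 15 DAF and -2.58 ± 0.55 at 20 DAF (adjusted p = 0.015, 9.4e-05 and 0.000456), of which the first was lost without the third pod 10 DAF column (-1.51, adjusted p = 0.0642). Between pod stages the libraries overlapped, and the change from 10 to 15 DAF was not called (1.54 ± 0.55, adjusted p = 0.0997).

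Phvul.006G165000, matched to GA2OX2, lay between 0.06 and 2.43 TPM in grain and was called in none of the 10 comparisons. In pods at 20 DAF its values were 0.123, 15 and 0.161 TPM, so 1 library set the group mean. The remaining 9 2-oxidase genes never exceeded 0.855 TPM. These were Phvul.001G215000, Phvul.002G049000, Phvul.002G193300, Phvul.003G118300, Phvul.005G092000, Phvul.005G092200, Phvul.006G120700, Phvul.007G212200 and Phvul.011G032800, of which Phvul.005G092200 was listed at 0 throughout.

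**Figure D1:**
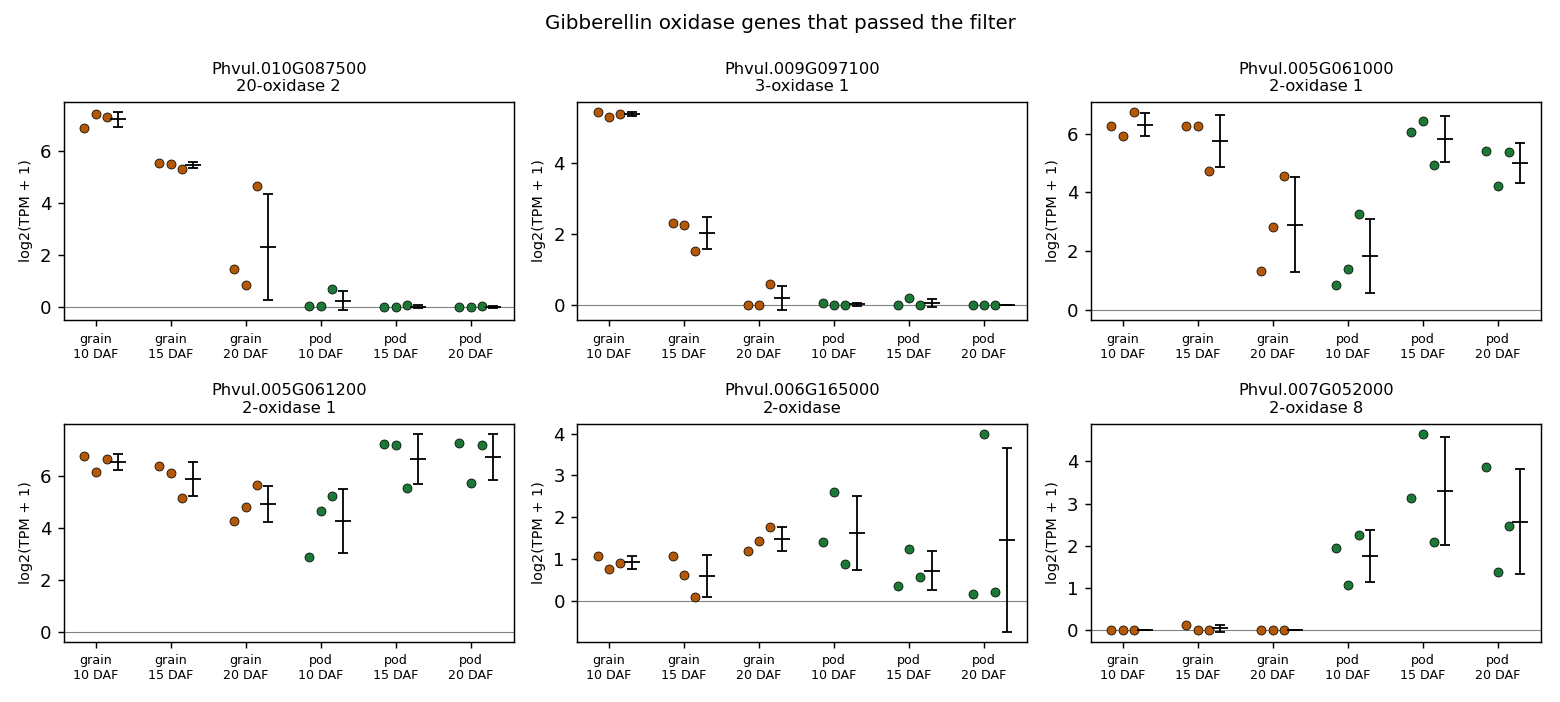
Values of the 6 oxidase genes that passed the filter, as log2(TPM + 1) on the vertical axis, for each library (points) by group, with the mean and SD of 3 libraries beside them. The 20-oxidase and 3-oxidase genes are high in grain at 10 DAF and near 0 in pods, whereas Phvul.005G061000 falls in grain and rises in pod.

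Summed by class as deposited, the enzymes kept these patterns. Transcripts of the 5 20-oxidase members, without the GA20OX1 match, summed to 151 ± 28.2, 43.1 ± 3.51 and 8.92 ± 13.2 TPM in grain at 10, 15 and 20 DAF. In pods they summed to 0.271 ± 0.297 TPM or less. 3-oxidase transcripts summed to 41.2 ± 1.95, 4.93 ± 3.24 and 0.634 ± 1.1 TPM in grain and to at most 0.94 ± 1.15 TPM in pods. The 2-oxidases differed from both classes by their pod level. Their sum was 173 ± 38.2, 121 ± 53.5 and 43.7 ± 27.8 TPM in grain and 31.2 ± 18.5, 186 ± 93.9 and 161 ± 65.3 TPM in pods. After median-ratio scaling, Phvul.005G061000 averaged 61.2 ± 15.9, 82.4 ± 39.4 and 16.9 ± 17.6 in grain at 10, 15 and 20 DAF. Phvul.005G061200 averaged 70.0 ± 12, 86.1 ± 35.2 and 56.8 ± 20.3. The grain decrease of this leading pair from 10 to 15 DAF therefore depends on the scale.

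Among the 16 gibberellin-regulated family genes, 1 gene led in late grain and another led in pods. Phvul.001G025800 had 292, 238 and 255 TPM in grain at 10 DAF, 474, 248 and 314 TPM at 15 DAF and 2579.7, 918 and 641 TPM at 20 DAF. In pods it had 136, 41 and 31.1 TPM at 10 DAF, then 5.72, 2.13 and 2.73 TPM at 15 DAF and 2.53, 0.603 and 0.632 TPM at 20 DAF. Every grain library at 20 DAF was above every earlier grain library, and grain lay above pod at each stage.

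Phvul.001G025800 rose in grain by 2.14 ± 0.53 from 10 to 20 DAF (adjusted p = 0.00204, and 3.44 after scaling) and fell in pod, with a log2 difference of -4.76 ± 0.53 (adjusted p = 1.02e-05). Grain change minus pod change was 6.90 ± 0.75 (adjusted p = 4.29e-06). Without grain 20 DAF replicate 1, the highest library, the grain rise was smaller and still called (1.55, adjusted p = 0.0204). The step from 15 to 20 DAF in grain was 1.78 ± 0.53 and not called as deposited (adjusted p = 0.0538), but it was called after scaling (2.21, adjusted p = 0.0283). Grain exceeded pod by 2.20 ± 0.53, 6.28 ± 0.53 and 9.10 ± 0.53 at the 3 stages (adjusted p = 0.00272, 3.1e-08 and 1.92e-10). The gene made up 24.4% of the summed family TPM in grain at 10 DAF, 64% at 15 DAF and 79.5% at 20 DAF.

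Phvul.009G181500 was the pod counterpart, with 90.5%, 97.4% and 99.5% of the summed family TPM in pods. It stood at 1293, 1764 and 1407 TPM in pods at 10 DAF, 129, 254 and 677 TPM at 15 DAF and 1117, 1543 and 929 TPM at 20 DAF. In grain it stood at 69, 43.2 and 25.5 TPM, then 15.2, 9.93 and 5.01 TPM, then 59.4, 95 and 72.6 TPM. As deposited, both tissues were lowest at 15 DAF with no overlap with 10 or 20 DAF, and every pod library exceeded every grain library. The 677 TPM in pods was replicate 3, whose column summed to only 436072 TPM, so the pod dip depends on the scale. After median-ratio scaling the pod means were 1167 ± 83.6, 423 ± 489.9 and 842 ± 246 at 10, 15 and 20 DAF.

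Pods exceeded grain in Phvul.009G181500 at each stage, with a log2 difference of grain to pod of -5.09 ± 0.50, -4.79 ± 0.50 and -3.96 ± 0.50 (adjusted p = 1.48e-07, 4.09e-07 and 2.48e-06), the last being -2.53 after scaling. Its fall in pods to 15 DAF was -2.39 ± 0.50 (adjusted p = 0.00687), a call that held after median-ratio scaling (-2.19, adjusted p = 0.039). It was lost when all columns were set to the same sum (-1.94, adjusted p = 0.0543) and without the 50 most abundant genes (-2.00, adjusted p = 0.0564). The rise in pods from 15 to 20 DAF was 2.05 ± 0.50 (adjusted p = 0.0422) and was lost after scaling (1.68, adjusted p = 0.171) and without any 1 of 9 single libraries. In grain the fall to 15 DAF was -2.09 ± 0.50 (adjusted p = 0.00265), which was lost after scaling (-1.26, adjusted p = 0.159), and the rise that followed was 2.88 ± 0.50 (adjusted p = 0.00161). The change in grain from 10 to 20 DAF was 0.79 ± 0.50 as deposited (adjusted p = 0.166) and 2.08 after scaling (adjusted p = 0.0163).

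**Figure D2:**
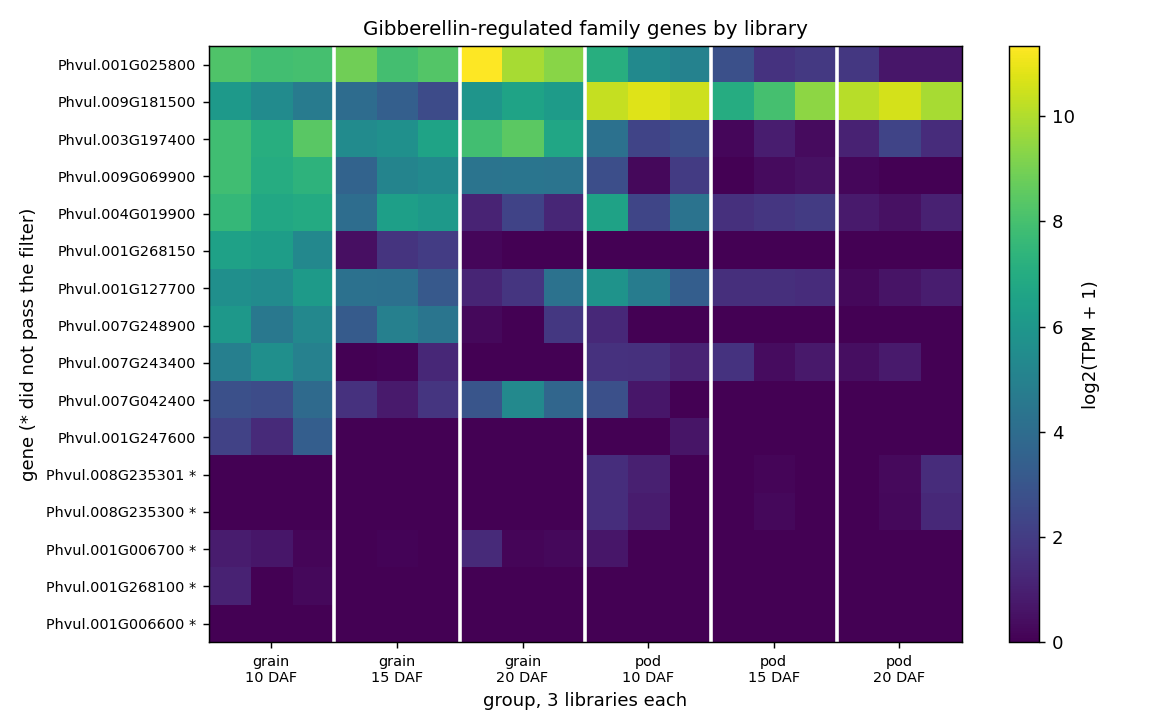
Levels of the 16 gibberellin-regulated family genes (rows, log2(TPM + 1) as colour) in the 18 libraries (columns, 3 per group, white lines between groups). Phvul.001G025800 is brightest in grain at 20 DAF and Phvul.009G181500 in pods, and Phvul.001G268150 in grain at 10 DAF.

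Phvul.003G197400 was a grain gene with a dip in the middle stage. Its grain values were 228, 137 and 348 TPM at 10 DAF, then 42.7, 51.1 and 93.3 TPM at 15 DAF and 239, 350.5 and 102 TPM at 20 DAF, against at most 17.5 TPM in pods. The 15 DAF grain libraries were all below those of the other stages. Its fall in grain to 15 DAF was -1.89 ± 0.52 (adjusted p = 0.00681) and was lost after scaling (-1.02, adjusted p = 0.193), and its rise from 15 to 20 DAF (1.78 ± 0.52, adjusted p = 0.0482) was lost without any 1 of 10 single libraries. Grain exceeded pod by 4.72 ± 0.52, 5.42 ± 0.52 and 6.07 ± 0.52 at the 3 stages (adjusted p = 6.81e-07, 1.54e-07 and 2.59e-08), and those calls held on both scales.

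Other family genes were highest in young grain. Phvul.001G268150 had 89, 79.4 and 37.7 TPM in grain at 10 DAF, 0.381, 2.22 and 3.08 TPM at 15 DAF and 0.136, 0 and 0 TPM at 20 DAF. It was listed at 0 in all 9 pod libraries. Its fall in grain was -4.64 ± 0.34 to 15 DAF and -5.97 ± 0.34 to 20 DAF (adjusted p = 2.79e-08 and 4.77e-10).

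Phvul.007G243400 was another gene of young grain, with 28.8, 49.1 and 30.5 TPM at 10 DAF, then 0, 0.09 and 1.4 TPM at 15 DAF and 0 in all 3 libraries at 20 DAF. Pods held between 0 and 2.17 TPM. Its fall in grain to 15 DAF was -4.71 ± 0.36 (adjusted p = 4.79e-08), and the step from there to 20 DAF was not called. Grain was above pod at 10 DAF by 3.73 ± 0.36 (adjusted p = 1.42e-07), while at the later stages the 2 tissues overlapped.

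Phvul.009G069900 fell in grain from 232, 128 and 160.4 TPM at 10 DAF to 11.2, 33.8 and 40.7 TPM at 15 DAF and 19.8, 20.1 and 19.4 TPM at 20 DAF. The fall to 20 DAF was -3.03 ± 0.50 (adjusted p = 5.58e-05, and -1.76 after scaling), and the last stage lay inside the range of the 15 DAF libraries. It stayed above pod, where the highest value was 5.69 TPM, at each stage, by 5.76 ± 0.50, 4.43 ± 0.50 and 4.31 ± 0.50 (adjusted p = 3.22e-08, 1.1e-06 and 9.68e-07).

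Phvul.004G019900 fell in both tissues. Grain libraries went from 187, 109 and 121 TPM at 10 DAF through 15.8, 82.7 and 66.9 TPM at 15 DAF to 1.18, 3.81 and 1.35 TPM at 20 DAF. Pod libraries went from 92.5, 4.12 and 19.2 TPM through 1.98, 2.42 and 2.87 TPM to 0.768, 0.428 and 1.06 TPM. Stages did not overlap in either tissue, but not every step was called. Neither the grain step from 10 to 15 DAF (-1.57 ± 0.72, adjusted p = 0.0825) nor the pod step from 15 to 20 DAF (-0.97 ± 0.72, adjusted p = 0.476) was called. The pod step from 10 to 15 DAF (-2.65 ± 0.72, adjusted p = 0.0328) was lost after scaling (-2.42, adjusted p = 0.0638). It was also lost with no filter (adjusted p = 0.103) and when all columns were set to the same sum (adjusted p = 0.0707). Without the 50 most abundant genes the call was lost too (adjusted p = 0.068). Without the first pod 10 DAF column the step was -1.58 (adjusted p = 0.197). Nor was it called without the last pod 10 DAF column or any single pod 15 DAF library (adjusted p = 0.0676 to 0.0828). The change from 10 to 20 DAF was -5.55 ± 0.72 in grain (adjusted p = 5.57e-06) and -3.62 ± 0.72 in pod (adjusted p = 0.00221). The pod change was -2.55 without the first pod 10 DAF column, and its call was lost when only the groups compared were fitted (adjusted p = 0.0537).

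**Figure D3:**
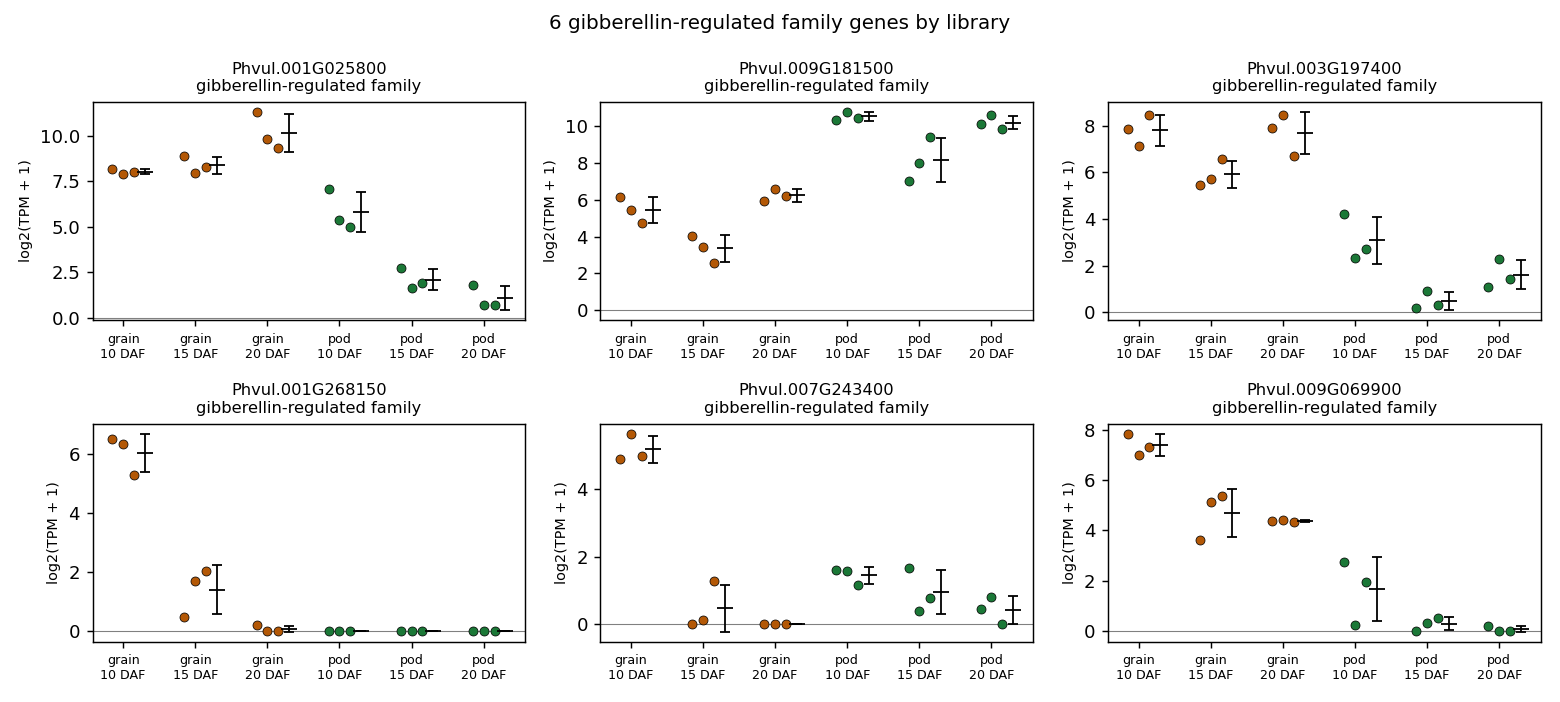
Values of 6 family genes as log2(TPM + 1) on the vertical axis, for each library (points) by group, with the mean and SD of 3 libraries beside them. Phvul.001G025800 rises in grain while it falls in pod, and Phvul.001G268150 and Phvul.007G243400 are near 0 in grain by 20 DAF. Phvul.009G181500 dips at 15 DAF in both tissues as deposited, a dip that depends on the scale.

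The remaining family genes that passed are given after their values were seen. Phvul.001G127700 had 43 to 72.1 TPM in grain at 10 DAF and 9.43 to 55.3 TPM in pods at 10 DAF, and fell in both tissues, to 1.24, 2.36 and 18.4 TPM in grain and 0.173 to 0.852 TPM in pods at 20 DAF. The 18.4 TPM was again grain 20 DAF replicate 3. Phvul.007G248900 went in grain from 22 to 64.4 TPM at 10 DAF to 0 to 2.53 TPM at 20 DAF. Phvul.007G042400 had 5.87, 5.27 and 14.1 TPM in grain at 10 DAF and 6.86, 38.9 and 12.3 TPM at 20 DAF, which overlap, and the change was called after scaling (2.09, adjusted p = 0.00853) but not as deposited (0.89 ± 0.59, adjusted p = 0.188). It was listed at 0 in pods at 15 and 20 DAF. Phvul.001G247600 was seen at 1.58 to 9.39 TPM in grain at 10 DAF and was listed at 0 in all later libraries of both tissues. The 5 family genes that did not pass reached at most 1.82 TPM. Of these, Phvul.008G235300 and Phvul.008G235301 were above 0 in the same 5 pod libraries at near-equal values, Phvul.001G006700 and Phvul.001G268100 were highest in grain libraries, and Phvul.001G006600 was listed at 0.

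In grain at 20 against 10 DAF, 1 member was called higher and 11 lower, beside 2.67% and 52.9% of all tested genes called higher and lower. The lower share of all genes was itself large, so the count of 11 is a description. After median-ratio scaling 3 were higher and 10 lower, beside 8.57% and 16.8% of all genes on that scale. The median difference of the 17 tested members was -3.03 as deposited, beside the -1.08 of all genes. At 15 against 10 DAF in grain, 0 members were higher and 10 lower by limma, beside 1.91% and 34.4% of all genes, and at an unadjusted p under 0.05 there were 0 higher and 12 lower. Scaling left 5 lower, beside 10.2% of all genes. At 20 against 15 DAF, 3 were higher and 6 lower, beside 0.896% and 5.05% of all genes. The oxidases supplied 3 of those 6, and the 3 higher genes were Phvul.009G181500, Phvul.003G197400 and Phvul.007G042400, all of the gibberellin-regulated family.

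In pods fewer members moved. At 20 against 10 DAF, 2 were higher, both of the GA2OX1 pair, and 4 were lower, all family genes, beside 5.38% and 6.72% of all genes. At 15 against 10 DAF, 2 were higher, the same pair, and 5 lower, beside 1.51% and 5.25% of all genes. Between 15 and 20 DAF in pods, 1 member, Phvul.009G181500, was higher and 0 lower by limma, beside 1.11% and 0.519% of all genes. After scaling none was called, and at an unadjusted p under 0.05 there were 2 higher and 0 lower. The median difference of the tested members from 10 to 20 DAF in pods was -0.33, beside 0.10 for all genes.

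Between tissues, 13 members were higher in grain and 2 in pod at 10 DAF, beside 17.8% and 16.8% of all tested genes, with a median difference of 2.68 for members and 0.02 for all genes. The 2 pod genes were Phvul.009G181500 and Phvul.007G052000. At 15 DAF, 9 were higher in grain and 2 in pod, beside 8.93% and 30.1% of all genes. At 20 DAF, 6 were higher in grain and 4 in pod, beside 6.25% and 56.7% of all genes, and after scaling the split was 6 to 2, beside 14.4% and 20.2% of all genes, as the GA2OX1 pair was no longer called. When the grain change from 10 to 20 DAF was set against the pod change, 2 members changed more upward in grain and 8 more downward, beside 3.69% and 52.8% of all genes, and after scaling 4 and 8, beside 9.17% and 12.8% of all genes. The grain comparisons share their libraries with the tissue comparisons, so these counts are not separate evidence.

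**Figure D4:**
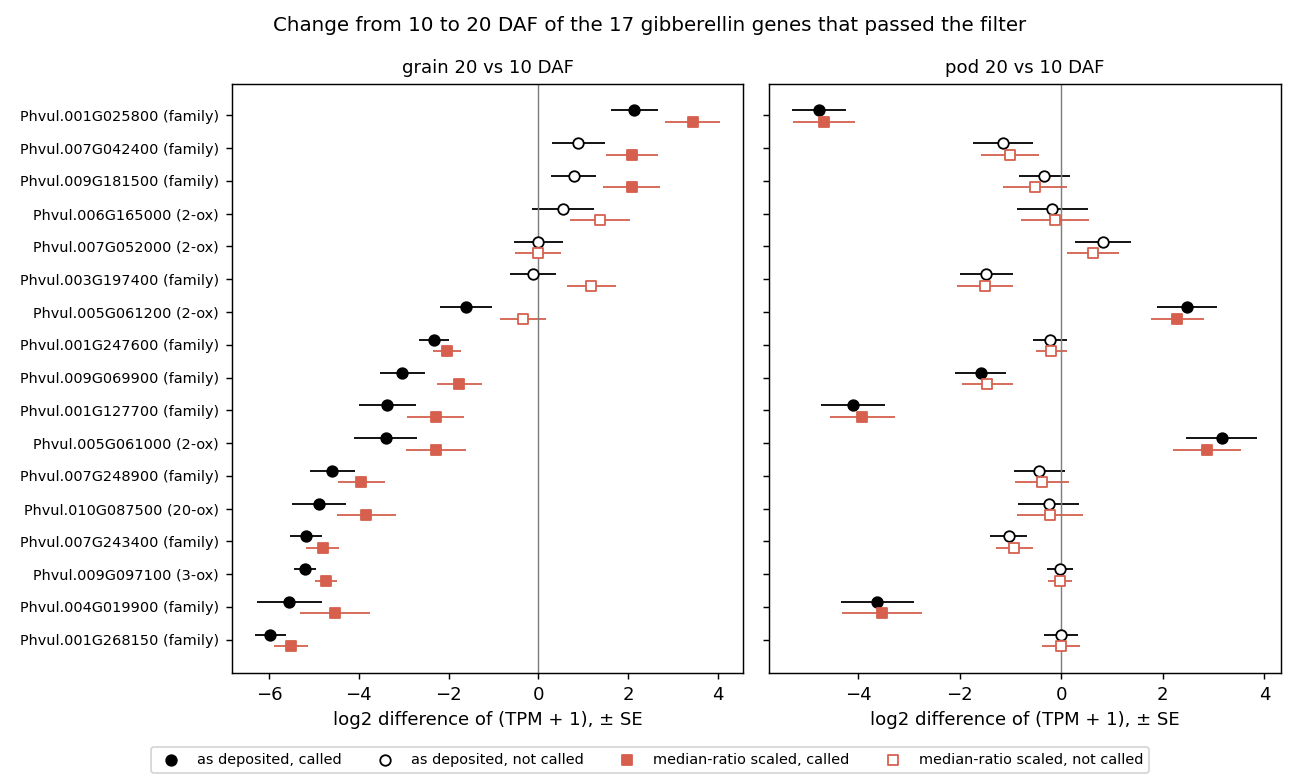
Log2 difference of (TPM + 1) with its SE (horizontal axis) from 10 to 20 DAF in grain (left) and pod (right) for the 17 tested members. Black circles are values as deposited and red squares are after median-ratio scaling, filled where called. The GA2OX1 pair, Phvul.005G061000 and Phvul.005G061200, lies left of 0 in grain and right of 0 in pod.

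Libraries that stood apart moved with some of these values. Grain 20 DAF replicate 3 held the highest grain value at 20 DAF of Phvul.010G087500, Phvul.009G097100, Phvul.005G061000 and Phvul.005G061200, and the values of Phvul.010G087500 without it are given above. Without it the fall in grain from 10 to 20 DAF was -5.39 for Phvul.009G097100, -4.23 for Phvul.005G061000 and -1.99 for Phvul.005G061200, each still called. Seed-coat tannin genes, 2 in number, summed to 184.6 to 602.1 TPM in grain at 10 DAF, 49.56 to 191.4 TPM at 15 DAF and 4.821 to 22.79 TPM at 20 DAF, with 1 of the 2 at 0 throughout the later stages. The 34 light-harvesting genes fell in grain from 4998 to 5935 TPM to 97.69 to 326.5 TPM over the same stages, with 6 at 0 throughout grain at 20 DAF. A list of 34 secondary wall genes fell too, from 500 to 758.8 TPM at 10 DAF to 242.7 to 335.7 TPM at 20 DAF, with 8 at 0 throughout grain at 20 DAF. Lists of seed storage cupins, oleosins and late embryogenesis abundant genes rose instead. As deposited, 52.9% of all genes were called lower there, so such a fall is not particular to these lists. The part of the falling lists in the falls of the young-grain genes was not tested. With replicate 3 of grain at 20 DAF and of pod at 15 DAF both left out, 12 members were called in grain at 20 against 10 DAF, the 12 called with all libraries, and 10 in the tissue difference, of which 9 were among the 10 called with all libraries. With all libraries, 52.9% of all genes were called lower in that grain comparison and 52.8% in the tissue difference. These counts are therefore a description.

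Of the other 34 pathway genes, 22 passed the filter, together with 2 of 3 genes for the first cyclase steps that were added after their descriptions had been read. In grain at 20 against 10 DAF, 1 of the 34 was higher and 13 lower as deposited, and 4 higher and 3 lower after scaling. Those 13 stand beside the 52.9% of all genes called lower there, and the 3 beside 16.8% after scaling, so neither count is a result about the list. In pods 1 was higher and 1 lower, beside 5.38% and 6.72% of all genes. Most of the grain calls in this list therefore depended on the scale.

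The upstream synthesis genes included the most abundant of all synthesis transcripts in young grain. Phvul.006G123500, matched to KAO2, an ent-kaurenoic acid oxidase that makes the first gibberellin of the pathway, had 235, 411 and 299 TPM in grain at 10 DAF, 25, 25.2 and 21.7 TPM at 15 DAF and 1.77, 3.92 and 15.3 TPM at 20 DAF. Pods held at most 0.452 TPM. The stages did not overlap, and the 15.3 TPM was replicate 3. Its fall in grain from 10 to 20 DAF was -5.67 ± 0.43 (adjusted p = 1.22e-08), and it exceeded pod at 10 DAF by 8.04 ± 0.43 (adjusted p = 6.22e-11), on both scales. A gene matched to CPS1, the cyclase that opens the pathway, was chosen after its values were seen. Phvul.001G152100 went from 45.8, 71 and 57.4 TPM in grain at 10 DAF to 0.138, 0.989 and 0.898 TPM at 20 DAF, and had 8.33, 32 and 24.5 TPM in pods at 10 DAF. In pods at 15 DAF it still had 22.9, 23.4 and 10.8 TPM. Unlike the tested 20-oxidase and 3-oxidase members, it was thus present in pods at 10 and 15 DAF. The other added cyclase gene that passed, Phvul.005G048500, matched to KS1, was low in pods. It averaged 4.12 ± 0.969 TPM in grain and 0.466 ± 0.188 TPM in pod at 10 DAF, and is likewise given after its values were seen. Phvul.005G183600, matched to GA3 and also chosen after its values were seen, was measured in both tissues. It averaged 59.2 ± 10.6 TPM in grain and 32.1 ± 9.68 TPM in pod at 10 DAF, then 14 ± 5.28 and 65.3 ± 30.4 TPM at 15 DAF. Grain was lower at 15 DAF by a log2 difference of -2.07 ± 0.38 (adjusted p = 0.000223, and -1.46 after scaling). At 20 DAF the difference was called as deposited (-1.80 ± 0.38) but not after scaling (-0.41). A second gene matched to KAO2, Phvul.006G123600, also chosen after its values were seen, was lower in grain than in pod, with 2.88 ± 0.203 TPM in grain and 7.86 ± 0.305 TPM in pod at 10 DAF (-1.19 ± 0.32, adjusted p = 0.00591). At 20 DAF that difference was -1.69 ± 0.32 as deposited and no longer called after scaling (-0.83).

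Receptor transcripts were measured in both tissues. Phvul.001G146300, matched to GID1B, had 3.25, 7.41 and 6 TPM in grain at 10 DAF and 1.68, 3.96 and 4.83 TPM at 20 DAF, against 5.82, 20.3 and 5.1 TPM in pods at 10 DAF and 41.2, 37.3 and 34.6 TPM at 20 DAF. It rose in pod by 2.01 ± 0.45 (adjusted p = 0.00513), and at 20 DAF grain was lower by a log2 difference of -3.18 ± 0.45 (adjusted p = 9.23e-06), and -1.95 after scaling. All 3 receptor genes were called lower in grain than in pod at 20 DAF, as were 56.7% of all genes. Phvul.007G183400, matched to GID1C, averaged 6.69 ± 0.872 TPM there against 45.1 ± 12.9 TPM in pod (-2.55 ± 0.35, adjusted p = 7e-06, and -1.22 after scaling), while its pod change from 10 to 20 DAF was not called (1.05 ± 0.35, adjusted p = 0.0566).

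Of the 7 DELLA repressor genes, 4 passed the filter, and the other 3 reached at most 1.03 TPM. Phvul.L002044, matched to the DELLA gene RGA, averaged 55.4 ± 19.8 TPM in grain and 293 ± 40.6 TPM in pod at 20 DAF (-2.43 ± 0.40, adjusted p = 3.87e-05, and -1.01 after scaling). Another DELLA gene, Phvul.008G235500, matched to RGL1 and chosen after its values were seen, went the other way, with 97.7 ± 12.4 TPM in grain and 11.3 ± 6.41 TPM in pod (3.19 ± 0.40, adjusted p = 2.85e-06). The remaining tested DELLA genes depended on the scale at 20 DAF. Phvul.003G291500 was lower in grain as deposited (-1.39 ± 0.28, adjusted p = 0.000333) and 0.00 after scaling. Phvul.001G230500 was -0.04 ± 0.37 as deposited, not called, and 1.35 after scaling (adjusted p = 0.004). The F-box gene Phvul.009G068500, matched to SLY1, averaged 49.7 ± 23.6 TPM in grain and 414 ± 135 TPM in pod at 20 DAF (-3.12 ± 0.44, adjusted p = 9.54e-06, and -1.70 after scaling). The fall of Phvul.L002044 in grain from 10 to 20 DAF was called as deposited (adjusted p = 0.0334), and its difference turned to 0.29 after scaling and was not called.

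GAST1 homologs named in the descriptions without the word gibberellin behaved in several ways. Phvul.001G006300, matched to GASA1, rose in grain from 4.46, 5.43 and 17.1 TPM at 10 DAF through 64.3, 61.1 and 68.8 TPM to 593, 231 and 207 TPM at 20 DAF, and held at most 5.59 TPM in pods. Its rise was 5.15 ± 0.46 (adjusted p = 8.25e-08), in the direction of the member Phvul.001G025800. Phvul.003G055500, also matched to GASA1, had 70.0 to 201 TPM in all 9 grain libraries and at most 0.284 TPM in pods. Its change in grain from 10 to 20 DAF was -0.25 ± 0.35 as deposited (adjusted p = 0.549) and 1.04 after scaling (adjusted p = 0.0142). Phvul.009G187400, matched to GASA4, was highest in young pods at 107, 36.1 and 16.7 TPM and its fall there to 20 DAF was -5.20 ± 0.55 (adjusted p = 5.89e-06).

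**Figure D5:**
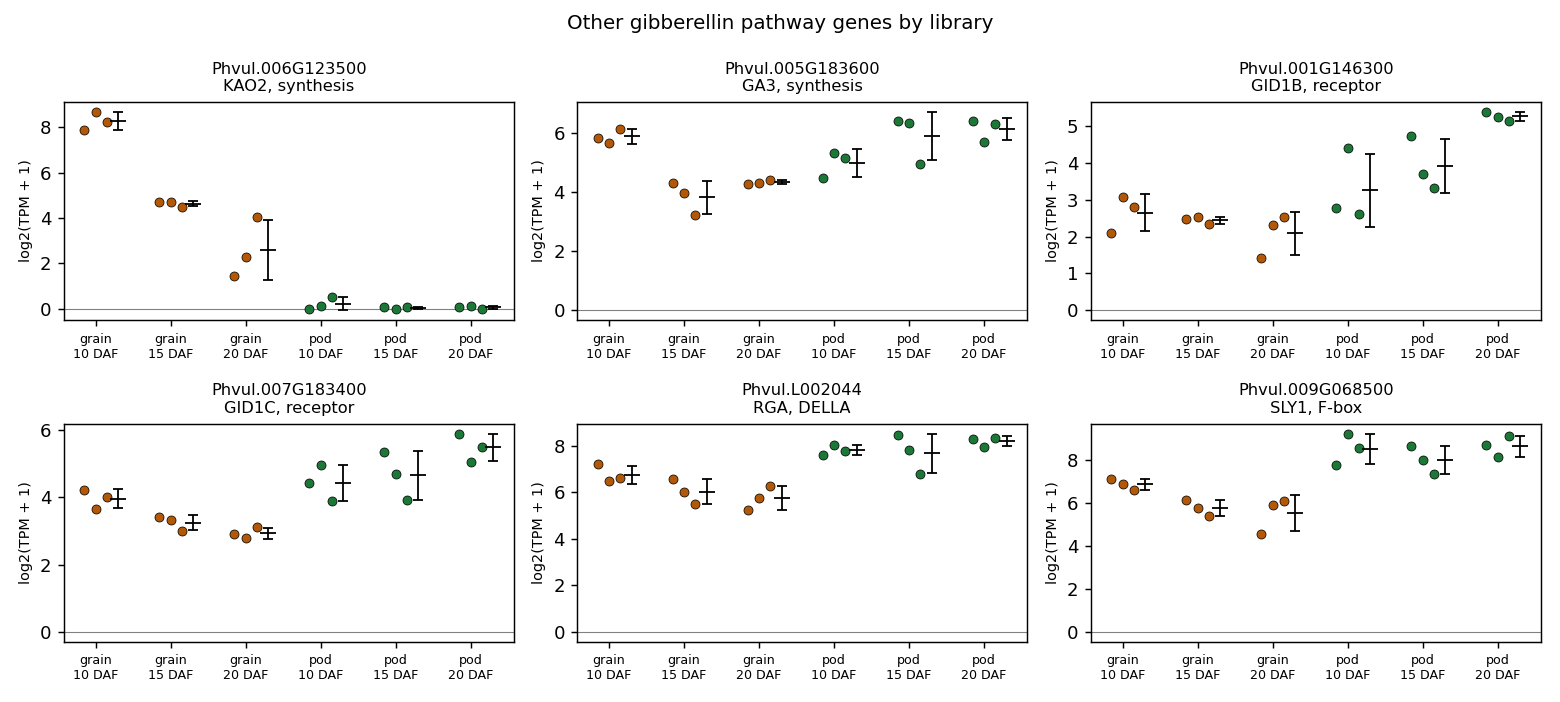
Values of 6 other gibberellin pathway genes as log2(TPM + 1) on the vertical axis, for each library (points) by group, with the mean and SD of 3 libraries beside them. The KAO2 gene Phvul.006G123500 falls in grain and is near 0 in pods, and the 2 receptor genes, the RGA gene and the SLY1 gene are higher in pod than in grain at 20 DAF.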

How the data were processed

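RNA sequencing of 18 libraries gave, in the table the authors deposited, TPM values per gene with a description of the closest Arabidopsis gene. TRIzol was used for total RNA and a SMARTER mRNA kit for the libraries, per the labels' protocols. The aligner, counting tool, build and annotation were not given in the sources used here. Of the 27420 genes, 4644 carried no description, so members among them cannot be found by words. The pod 10 DAF columns are numbered differently from the titles of those samples and were assigned to their group only, in column order.

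Values were put on the log2 scale as log2(TPM + 1), and the deposited TPM were not rescaled in the main fit. A filter of 1 TPM reached in 3 or more libraries kept 19861 genes, which were fitted together in limma 3.58.1 (R 4.3.3) with 6 group means, 12 residual degrees of freedom and a trend on intensity. P-values were adjusted by Benjamini-Hochberg over all those genes in each comparison, and a call needed that p below 0.05 together with 1 log2 unit of difference or more. With 3 libraries a group, exact permutation reaches no p under 0.1. Median-ratio scaling used 11276 genes above 1 TPM in every library. The fit was tested on simulated data.

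The members and lists were chosen with earlier results of these data known. Named genes were every oxidase member with a group mean of at least 1 TPM, the 6 family genes with the highest group mean, per comparison the called member most changed in each direction (5 TPM or more in the higher group), and by the same means genes of the other pathway list. Whether same-numbered libraries pair the samples is not labelled, and no pairing was used in the main fit. Of 30 same-numbered pairs of deviations from group means, 9 correlated above 0.1, and r ran from -0.1647 to 0.2369. Differently numbered pairs ran from -0.2827 to 0.2466, a range that spans the other, so the check does not decide the question. The gene table used as a reference shares no identifiers with the expression table, so no sequences or coordinates are given.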

Additional observations from a re-analysis of the deposited data

Results flagged for a closer look

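The change from 10 to 20 DAF differed between grain and pod, by the interaction test of the limma fit, in 7 named members and 6 other named pathway genes. Of all tested genes, 3.69% were called higher and 52.8% lower in that test. Given as the grain change minus the pod change on the log2 scale, the oxidase values were -4.65 for Phvul.010G087500, -5.18 for Phvul.009G097100, -6.56 for Phvul.005G061000 and -4.09 for Phvul.005G061200. The family values were 6.90 for Phvul.001G025800, -5.97 for Phvul.001G268150 and -4.15 for Phvul.007G243400. These 7 kept their call after median-ratio scaling. Phvul.001G268150 was listed at 0 in every pod library. Pods held at most 0.605 TPM of Phvul.010G087500, 0.147 TPM of Phvul.009G097100 and 2.17 TPM of Phvul.007G243400. A gene near 0 in pod has little room to fall there, so for these genes the difference mostly repeats the grain fall.

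Among the other pathway genes the differences were -5.51 for Phvul.006G123500 (KAO2) and 4.36 for Phvul.001G006300 (GASA1), both called on both scales. Pods held at most 0.452 TPM of Phvul.006G123500, so its difference also mostly repeats the grain fall. The other 4 differences depended on the scale. The differences of Phvul.001G146300 (GID1B, -2.57), Phvul.007G183400 (GID1C, -2.08), Phvul.L002044 (RGA, -1.38) and Phvul.009G187400 (GASA4, 2.04) were not called after scaling, with adjusted p of 0.0578, 0.146, 0.893 and 0.0881.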

How the results depend on the processing

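Counts of called members stayed within 1.5 times their value in 6 of the 10 comparisons under every planned setting other than single-library removal, and the 4 others moved as follows. In grain at 15 against 10 DAF the count of 10 became 5 after median-ratio scaling, and again 5 once the 50 most abundant genes were removed, and it ran from 6 to 11 with single libraries left out. In grain at 20 against 15 DAF the count of 9 became 5 with no filter and ran from 5 to 10 with single libraries left out. In pod at 20 against 10 DAF the count of 6 became 3 when only the groups compared were fitted and ran from 4 to 7. In pod at 20 against 15 DAF the count of 1 became 0 with a pseudocount of 0.1 TPM, with no filter, after median-ratio scaling, at the same sum of TPM, without the 50 most abundant genes and with the replicate block, and it ran from 0 to 1. Among the named genes, directions turned in 4 results. Phvul.007G183400 in grain at 20 against 10 DAF was 0.16 after scaling and 0.01 with the 50 genes left out, Phvul.L002044 there was 0.29 and 0.12, and the tissue difference of Phvul.L002044 was 0.08 after scaling. Phvul.003G055500, not called in grain at 20 against 10 DAF, was 1.04 after scaling, 0.88 without the 50 genes, and from -0.72 to 0.03 with single libraries left out, the highest without grain 20 DAF replicate 1. Over all tested genes of the lists, scaling turned 0 of 91 called results of members and 6 of 84 of the other pathway genes. The causes were not tested. The replicate block gave 12 called members in grain at 20 against 10 DAF and 11 at 15 against 10 DAF. In the main fit 52.9% and 34.4% of all genes were called lower in these comparisons, so the counts are a description. The block was not used in the text because the labels do not say whether the numbers pair the samples. Limits are 3 libraries a group with unknown origin, unknown depth, TPM that are shares of a library and unknown treatment of reads shared between gene copies.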
